A study of Homo sapiens with 7 samples.

Results

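The protocadherin family was followed in ACHN cells, an established human renal adenocarcinoma cell line, on 7 one-colour Agilent arrays. Members were the non-control probes whose gene name on the array begins with PCDH, without PCDH10 and PCDHB5, which were not analysed here. This gave 80 probes of 63 gene names, out of 42405 probes with 34809 gene names. The alpha cluster had 16 probes of 15 names, the beta cluster 18 probes of 17 names, the gamma cluster 23 probes of 17 names and the non-clustered genes 23 probes of 14 names. ACHN-EV cells (4 arrays, EV1 to EV4) were infected with a retrovirus from the empty pBabe-hygro vector. ACHN-HOTAIR cells (3 arrays, HOTAIR1 to HOTAIR3) received the same vector with a cDNA of human HOTAIR, a long non-coding RNA transcribed from the HOXC locus. Both groups therefore shared the infection and the hygromycin selection, and the arrays were run to look for genes that respond to HOTAIR. Nothing in the sources used here says whether the arrays of a group came from separate infections or cultures, so every p-value measures only the spread between these samples, which may be technical.

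Protocadherins are membrane proteins of the cadherin superfamily that bind the same protein on a neighbouring cell. The alpha, beta and gamma genes lie side by side on chromosome 5. In the alpha and gamma clusters each variable exon has its own promoter, codes for the extracellular part and the membrane span, and is spliced to constant exons that all genes of the cluster share at their 3′ end. The beta genes are single coding exons without such a constant end. Promoter choice in the clusters is known to involve DNA methylation, the architectural factor CTCF and cohesin, and is best studied in neurons, where single cells express different sets of isoforms. Non-clustered protocadherins are scattered over several chromosomes, and some of them, PCDH20 and PCDH17 among these, have been studied as genes silenced by promoter methylation in carcinomas.

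Values are given as log2 relative intensity, the log2 of the processed spot intensity minus the 75th percentile of the same array, so that 0 stands for that percentile. This percentile lay between 523 and 649 intensity units, and 48.7% to 52.1% of the probes on each array were well above background. HOTAIR itself was detected on none of the 4 EV arrays and on all 3 HOTAIR arrays. Its log2 difference (HOTAIR minus EV) was 3.71 (limma, adjusted p = 0.00162). The EV values were at or near background, so this difference gives no exact fold. With normexp background correction its log2 difference was 1.06 (adjusted p = 0.0251). Of the markers of renal epithelial carcinoma cells, PAX8, PAX2, KRT8, KRT18, VIM, MET, EPCAM and CDH2 were detected on all arrays, and CDH1 and CDH6 on none. None of the 4 fibroblast markers was detected on any array, and none of the 4 endothelial markers passed the filter for testing. Of 3 leukocyte markers, CD68 alone was detected on all arrays, with a log2 difference (HOTAIR minus EV) of 0.0090. EV2 and HOTAIR3 deviated from their group means in the same direction (r = 0.62 across tested probes, which are not independent). All 7 arrays were on 1 slide, with EV in its first row and HOTAIR in its second, so the row on the slide cannot be told apart from the group.

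Which transcript a probe can bind matters in this family, because whole clusters share exons. On the hg19 build, the alpha probes lay at chr5:140168240-140390955, the beta probes at chr5:140433339-140627489 and the gamma probes at chr5:140720840-140892453, all on the plus strand. Of the 16 alpha probes, 15 were annotated to transcript variant 2 of their gene, as were 21 of the 23 gamma probes, and each cluster had 1 probe of a variant 1. Both of these variant 1 probes lay at the far 3′ end of the cluster. The PCDHGA8 probe at chr5:140892394-140892453 was paired by the annotation with transcripts of PCDHGA8, PCDHGA2, PCDHGA11 and PCDHGA12, and the PCDHA11 probe at chr5:140390896-140390955 with transcripts of PCDHA11, PCDHA9, PCDHAC1 and PCDHAC2. In all, 10 of the 80 probes were paired with transcripts of more than 1 named gene. Names without a probe were PCDHGA1, PCDHGA4, PCDHGA6, PCDHGA10, PCDHGA11 and PCDHGB5 of the 22 protein-coding gamma genes in RefSeq (GRCh38.p14), PCDHB3 of the 16 beta genes, and none of the 15 alpha genes. Exon and UTR boundaries on hg19 were not used here.

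The letters of many variant 2 probes run across GTNAG, the letters that follow an exon at a typical splice donor. GTNAG was found on the probe strand of 13 of the 16 alpha probes (81.3%), 8 of the 23 gamma probes (34.8%), 4 of the 18 beta probes (22.2%) and 2 of the 23 non-clustered probes (8.70%), against 15.7% of all 42405 probes. On the opposite strand the shares were 12.5% of the alpha and 13.0% of the gamma probes, against 16.9% of all. The longer GTNAGT, which contains GTNAG, was on the probe strand of 8 of the 16 alpha probes and of 3.92% of all probes. The 6 probes below are shown because their letters run through GTNAG, in capitals, and end on a stop codon, with no earlier stop among the 20 codons read back from the last base. Such an end was found in 6 of the 16 alpha, 1 of the 18 beta, 1 of the 23 gamma and 2 of the 23 non-clustered probes, and in 4.63% of all probes. Both features together were found in 5 alpha probes and 1 gamma probe, and in 291 of all 42405 probes. The 6 probes below are all the member probes with both features, and the PCDHA11 probe among them is the variant 2 probe. Of these 6, the PCDHA7 probe alone was detected on all arrays.
PCDHA7: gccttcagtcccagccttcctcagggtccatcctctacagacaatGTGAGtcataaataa
PCDHA1: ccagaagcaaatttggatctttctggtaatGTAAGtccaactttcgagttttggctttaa
PCDHA4: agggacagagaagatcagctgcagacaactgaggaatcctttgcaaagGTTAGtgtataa
PCDHA11: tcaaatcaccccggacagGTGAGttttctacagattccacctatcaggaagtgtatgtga
PCDHA12: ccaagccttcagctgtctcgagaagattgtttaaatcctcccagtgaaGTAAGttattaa
PCDHGA5: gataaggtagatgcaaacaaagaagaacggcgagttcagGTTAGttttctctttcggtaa
A match of these letters is a description of the probe and does not show which transcript was bound.

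Beta and gamma genes are close relatives, and some probes share long runs of letters. Runs of at least 15 identical bases occurred in 4 pairs of member probes, PCDHGA3 with PCDHGA5 (32 bases), PCDHGA2 with PCDHGA3 (24 bases), PCDHB2 with PCDHB13 (23 bases) and PCDHGA2 with PCDHGA5 (15 bases). The runs of the gamma pairs include GTGAG, so the gamma share with GTNAG counts the same stretch more than once. This PCDHGA5 probe is not the one shown above. Only the pair of PCDHB2 and PCDHB13 held a probe that was detected, and it is shown for that reason, with the shared run in capitals. Of these, the PCDHB13 probe was detected on all 7 arrays and the PCDHB2 probe on none.
PCDHB2: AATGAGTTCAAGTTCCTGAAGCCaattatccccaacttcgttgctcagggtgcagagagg
PCDHB13: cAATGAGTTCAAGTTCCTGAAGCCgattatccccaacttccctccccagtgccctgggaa

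Few protocadherin probes were detected in these cells. Most alpha and gamma probes were annotated to transcript variant 2, and how far they read other transcripts of their genes was not tested. A probe was counted as detected on an array where at least 0.5 of its spots were well above background by the software's call, and 7 of the 80 probes (8.75%) passed the filter for testing, detection on every array of at least 1 group, against 48.2% of all probes. These 7 were detected on all 7 arrays, a further 7 on some arrays only and 66 on none, and for 50 of the 63 gene names no probe was detected on any array. The detected genes came from every class, with PCDHA7 from the alpha cluster, PCDHB13 from the beta cluster, PCDHGA7 from the gamma cluster, and PCDH1, PCDH7 and PCDH20 from the non-clustered genes. The remaining probe, named PCDHGA8, lies in the shared gamma 3′ end and is paired with 4 gamma genes, and the other PCDHGA8 probe was not detected. Per array, 8 to 11 member probes were detected, with 11, 8, 9 and 9 on EV1 to EV4 and 8, 8 and 11 on HOTAIR1 to HOTAIR3, so the groups overlapped in this count. With 7 arrays of bulk RNA, fewer cells that express a gene and less RNA per cell cannot be told apart.

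**Figure D1:**
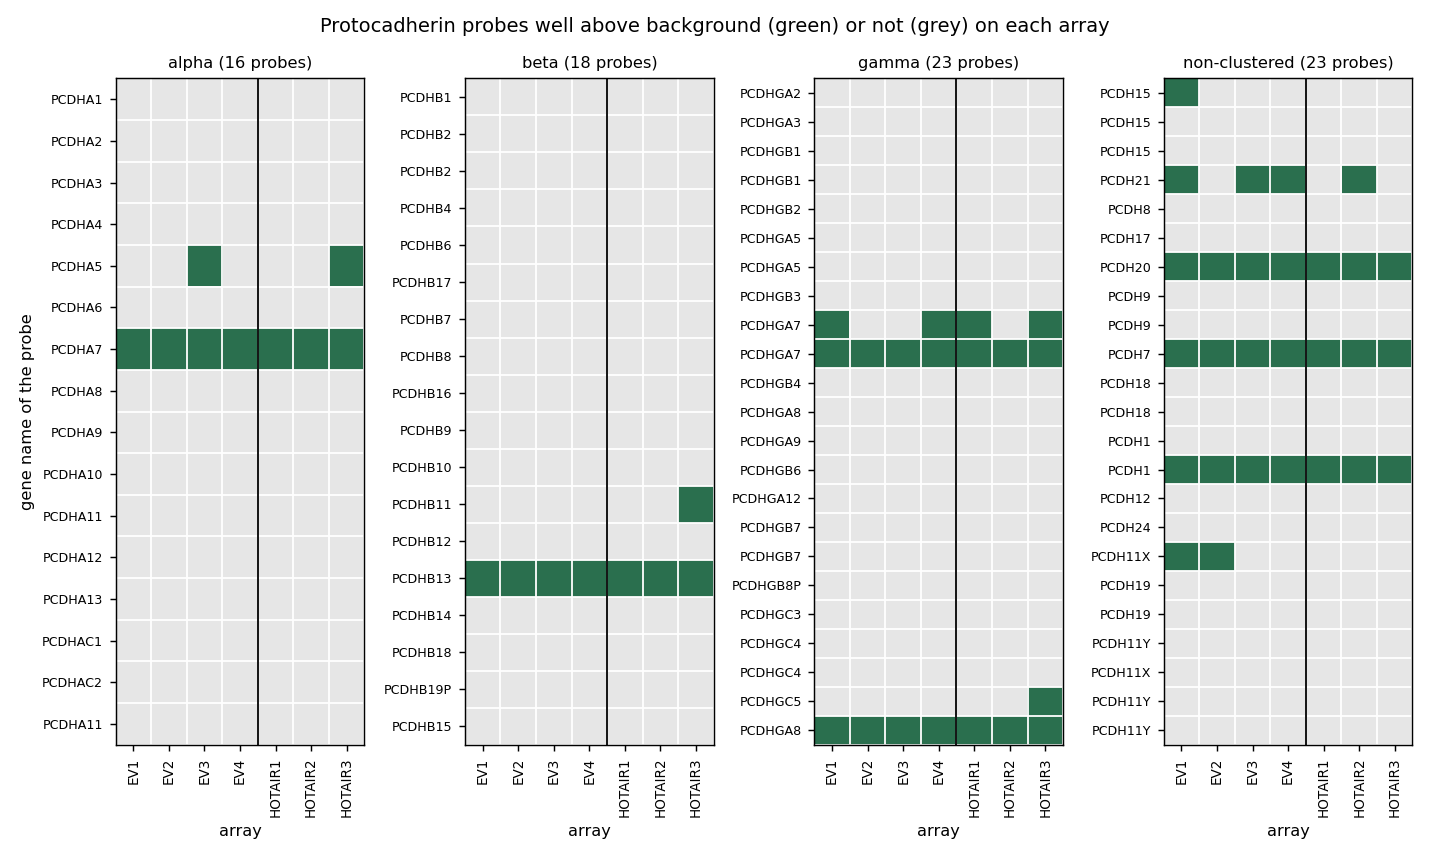
Detection of the 80 protocadherin probes (rows, named by gene and in genome order within each class) on the 7 arrays (columns, EV left of the line and HOTAIR right of it), green where well above background and grey where not. Full green rows are the 7 probes detected on all arrays, and 66 rows are grey throughout.

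Most gene names of every cluster had no detected probe. Within the alpha cluster, 13 of 15 gene names had no detected probe, among them both C-type genes, PCDHAC1 and PCDHAC2, and within the beta cluster 15 of 17. Within the gamma cluster this held for 14 of 17 names, PCDHGC3 and PCDHGC4 among them. The pseudogene names PCDHB17, PCDHB18, PCDHB19P and PCDHGB8P were also without a detected probe. Of the non-clustered genes, PCDH8, PCDH9, PCDH12, PCDH17, PCDH18, PCDH19, PCDH24 (now CDHR2, a brush border protocadherin) and PCDH11Y had no detected probe. The values of undetected probes ran from -7.76 to -5.29 over all classes and arrays and are upper bounds only. Not detected here means at or near background on this array, not absent from the cells. It also does not speak for transcripts of the same gene that the probe does not bind.

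Genes with several probes did not always give the same answer. Of 15 such genes, 10 had no detected probe at all and 5 had probes that differed in detection. For PCDHGA8 the probe in the shared gamma 3′ end was detected on all arrays, and the other probe, at chr5:140774868-140774927 and annotated to variant 2, on none. In the alpha cluster the shared-end PCDHA11 probe was detected on no array. Among the variant 2 probes, 1 of 15 in the alpha cluster (PCDHA7) and 1 of 21 in the gamma cluster (PCDHGA7) were detected on all arrays. For PCDH1, the variant 1 probe (chr5:141242218-141242277, minus strand) was detected on all arrays and the variant 2 probe (chr5:141232884-141232943) on none. For PCDHGA7 both probes were seen, one on all arrays and one on 4, and PCDH11X and PCDH15 each had 1 probe that was detected on some arrays.

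No protocadherin probe passed the test for a difference between ACHN-HOTAIR and ACHN-EV. By limma, with p-values adjusted over the 20419 tested probes by the Benjamini-Hochberg method, 0 of the 7 tested members were called at an adjusted p of 0.05, against 34 of all tested probes (0.167%). At an unadjusted p of 0.05 it was 1 of 7, PCDH20, against 5.85% of all tested probes. The rank product, which called 85 of all probes, also called 0 members. Of the 7 probes, 4 had the higher mean in ACHN-HOTAIR and 3 in ACHN-EV, and the median log2 difference (HOTAIR minus EV) was 0.15, against 0.013 over all tested probes. The groups did not overlap for 1 of the 7, PCDH20, which was lower in ACHN-HOTAIR, against 7.7% of all tested probes without overlap and 3.5% without overlap and lower. With 3 against 4 arrays there are 35 splits, so the smallest two-sided p of the exact permutation test is 0.0286.

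**Figure D2:**
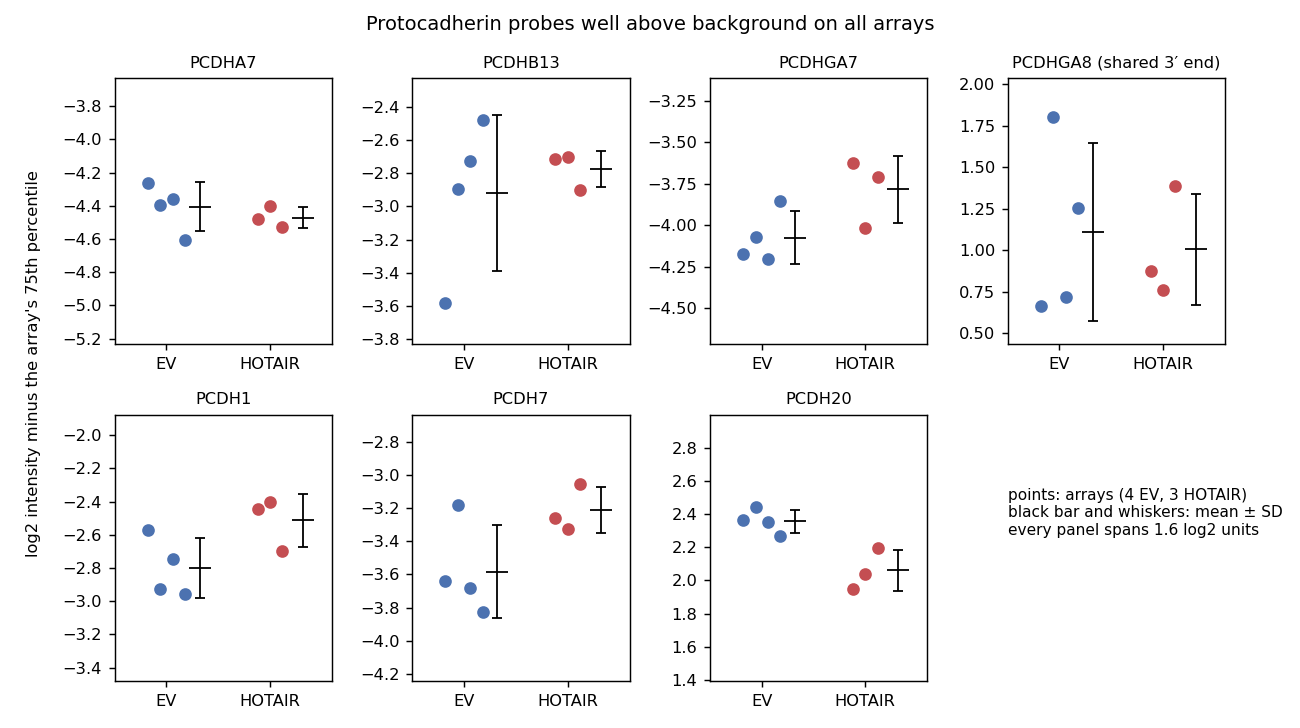
Log2 relative intensity of the 7 protocadherin probes detected on all arrays, 1 panel per probe, with 1 point per array for EV (4) and HOTAIR (3) and a black bar and whiskers for mean ± SD. Only in the PCDH20 panel do all HOTAIR points lie below all EV points, and the EV points of PCDHGA8 and PCDHB13 spread most widely.

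Among the non-clustered genes, PCDH20, on chromosome 13 (chr13:61984366-61984425, minus strand), had the smallest unadjusted p of the family. Its log2 relative intensity was 2.36, 2.44, 2.35 and 2.27 on EV1 to EV4, and 1.95, 2.04 and 2.19 on HOTAIR1 to HOTAIR3. Each HOTAIR array lay below each EV array, with the gap between the lowest EV array and HOTAIR3 smaller than the range of either group. The mean was lower in ACHN-HOTAIR by a log2 difference of -0.30 (SE 0.11, 95% interval -0.55 to -0.044), or 1.23-fold, with an exact permutation p of 0.0286, the smallest this design allows. In limma, the unadjusted p was 0.0269 and the adjusted p 0.748, so the difference was not called. PCDH20 was also among the least variable probes, with a pooled SD within groups of 0.0962 log2 units, and only 8.21% of the tested probes had a smaller one. The first 30 bases of its probe are given because PCDH20 is the member with the clearest separation.
PCDH20: atcatattaaaagtgaattcttctagaggc

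PCDH7, on chromosome 4 (chr4:30726159-30726218, plus strand), codes for a non-clustered protocadherin known for binding the phosphatase regulator SET. It measured -3.64, -3.18, -3.68 and -3.83 on EV1 to EV4, and -3.26, -3.32 and -3.06 on HOTAIR1 to HOTAIR3. The groups overlapped through EV2 alone, which lay above HOTAIR1 and HOTAIR2. The log2 difference was 0.37 (SE 0.17, 95% interval -0.027 to 0.77), the largest mean difference of the 7, with a limma adjusted p of 0.889. Without EV2, the array that deviates together with HOTAIR3, the difference was 0.50 (limma adjusted p = 0.298), the largest of the alternatives. It was 0.29 without HOTAIR3 and 0.21 with normexp background correction, the smallest.

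PCDH1, an adhesion protein of epithelial cells known from airway epithelium, was lower on the EV arrays on average. Its detected probe measured -2.57, -2.93, -2.74 and -2.96 on EV1 to EV4, and -2.44, -2.40 and -2.70 on HOTAIR1 to HOTAIR3. EV1 lay above HOTAIR3, so the groups overlapped. The log2 difference was 0.29 (SE 0.14, 95% interval -0.040 to 0.61), with a limma adjusted p of 0.917.

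In the gamma cluster, the PCDHGA7 probe at chr5:140764880-140764939 was detected on all arrays. Its first 30 bases are given with GTNAG in capitals, since it is the gamma probe with such letters that was detected on all arrays.
PCDHGA7: caagtattcagGTGAGcccagcccttcctt
This probe measured -4.18, -4.07, -4.20 and -3.85 on EV1 to EV4, and -3.63, -4.02 and -3.71 on HOTAIR1 to HOTAIR3. HOTAIR2 lay among the EV arrays. The log2 difference was 0.29 (SE 0.14, 95% interval -0.041 to 0.62), with a limma adjusted p of 0.918, and it was 0.033 with normexp background correction. The second PCDHGA7 probe (chr5:140764098-140764157), which the annotation also pairs with PCDHGA8, was detected on EV1, EV4, HOTAIR1 and HOTAIR3 and measured -5.33, -5.51, -5.66 and -4.65 on EV1 to EV4 and -4.97, -5.76 and -4.81 on HOTAIR1 to HOTAIR3. It was not tested, and its groups overlapped.

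The shared-end gamma probe, named PCDHGA8 on the array, reads transcripts of several gamma genes together, and its first 30 bases are shown because it is the family's only detected probe of this kind.
PCDHGA8: gtactgacttctcctataagcgcttctctt
It measured 0.66, 1.80, 0.72 and 1.26 on EV1 to EV4, and 0.87, 0.76 and 1.39 on HOTAIR1 to HOTAIR3. The highest array of each group was EV2 and HOTAIR3, the pair that deviates together across the whole array, and the groups overlapped throughout. The pooled SD within groups was 0.47 log2 units, larger than that of 86.3% of the tested probes and above the median of 0.22. The log2 difference of -0.10 (SE 0.30, 95% interval -0.81 to 0.60, limma adjusted p = 0.993) was smaller than this spread. Its sign turned without EV2, to 0.13, and without HOTAIR2, to 0.019. A change of up to 0.6 log2 units in either direction lies within this interval and is not excluded here.

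In the alpha cluster, the PCDHA7 probe (chr5:140216279-140216338, plus strand) was the single probe detected on all arrays. Its log2 relative intensity was -4.26, -4.39, -4.36 and -4.60 on EV1 to EV4, and -4.48, -4.40 and -4.53 on HOTAIR1 to HOTAIR3. The HOTAIR arrays lay within the range of the EV arrays. The log2 difference was -0.066 (SE 0.12, 95% interval -0.34 to 0.21, limma adjusted p = 0.993).

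In the beta cluster, the PCDHB13 probe (chr5:140595978-140596037) measured -3.58, -2.89, -2.73 and -2.48 on EV1 to EV4, and -2.72, -2.70 and -2.90 on HOTAIR1 to HOTAIR3. EV1 was the lowest of all arrays and EV4 the highest, with the HOTAIR arrays between them. The log2 difference was 0.15 (SE 0.25, 95% interval -0.43 to 0.72, limma adjusted p = 0.993), and without EV1 it was -0.073. The pooled SD within groups was 0.37 log2 units, larger than that of 78.6% of the tested probes.

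**Figure D3:**
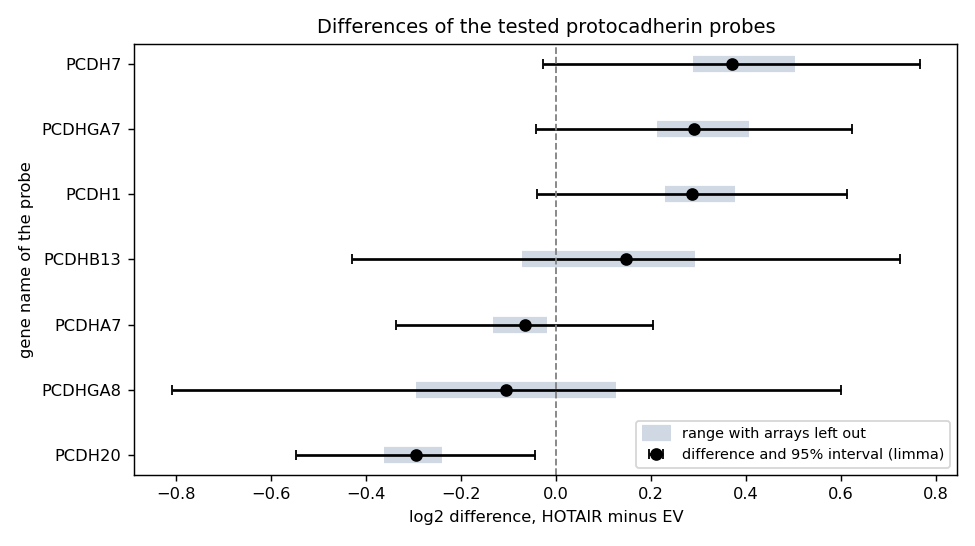
Log2 difference (HOTAIR minus EV) of the 7 tested protocadherin probes, with the point and whiskers for limma's estimate and its 95% interval and the pale bar for the range when 1 array, or EV2 and HOTAIR3 together, was left out. The interval of PCDH20 lies below 0 before adjustment, and the pale bars of PCDHB13 and PCDHGA8 cross 0.

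A further 7 probes were seen on some arrays only and were not tested. PCDH21, the array's name for CDHR1, a photoreceptor cadherin, was detected on EV1, EV3, EV4 and HOTAIR2. It measured -4.35, -5.77, -4.81 and -4.90 on EV1 to EV4, and -5.14, -4.92 and -5.78 on HOTAIR1 to HOTAIR3, so its groups overlapped. The PCDH11X probe at chrX:91873836-91873895, which the annotation also pairs with PCDH11Y, was detected on EV1 and EV2, at -5.12 and -3.59, and on no HOTAIR array, where it lay between -6.23 and -5.23. EV3 and EV4, at -5.23 and -5.28, were within the range of the HOTAIR arrays. PCDHA5 was detected on EV3 (-4.78) and HOTAIR3 (-4.76) and was the lowest on HOTAIR1 (-7.65), and 1 of the 3 PCDH15 probes, whose gene is needed for the tip links of hair cells in the inner ear, on EV1.

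PCDHB11 and PCDHGC5 were each detected on HOTAIR3 alone. PCDHB11 measured -4.90 there, against -7.49 to -7.17 on the other arrays, and PCDHGC5 measured -4.78, against -7.48 to -5.58. The 11 members detected on HOTAIR3 include PCDHB11 and PCDHGC5 themselves, against 8 on HOTAIR1, 8 on HOTAIR2 and 11 on EV1. HOTAIR3 had the largest share of all probes well above background, 52.1%. Its part in these detections was not tested, and neither gene was seen on HOTAIR1 or HOTAIR2.

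**Figure D4:**
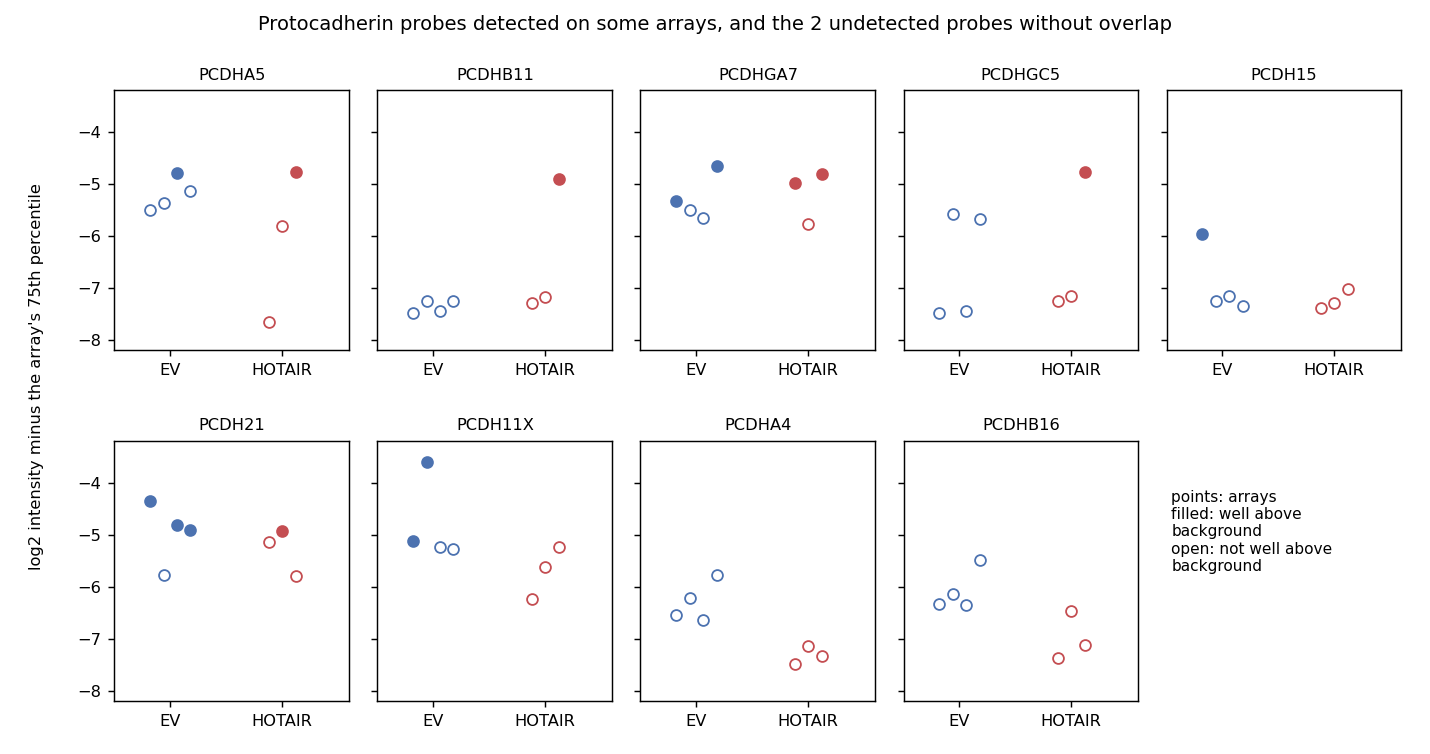
Log2 relative intensity on each array of the 7 protocadherin probes detected on some arrays only and of PCDHA4 and PCDHB16, detected on none, with filled points where the probe was well above background and open points where it was not. The filled points of PCDHB11 and PCDHGC5 are on HOTAIR3 and that of PCDH15 on EV1.

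Over all 80 member probes, whether detected or not, the groups did not overlap for 3, PCDH20, PCDHA4 and PCDHB16. The measured values were lower on the HOTAIR arrays for all 3, of which only PCDH20 was detected. Of all probes with a value on every array, 2.39% had HOTAIR lower without overlap, a share that counts this direction only. PCDHA4 lay between -6.63 and -5.77 on the EV arrays and between -7.48 and -7.13 on the HOTAIR arrays. PCDHB16 lay between -6.36 and -5.48 on the EV arrays and between -7.37 and -6.46 on the HOTAIR arrays. Neither was detected on an array, so these values bound the level from above in both groups and give no fold or order.

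RNA of most genes whose proteins control or act with protocadherins was detected, with 3 genes detected on no array. A list of 58 names held chromatin and cohesin regulators, binding partners and effectors, proteases that cleave protocadherins and other adhesion proteins. On the array, 53 of the names had 85 probes, of which 74 probes of 49 genes were tested. None of the 74 was called by limma after adjustment (background 0.167%), nor by the rank product, and 3 had an unadjusted p under 0.05 (background 5.85%), with 30 probes higher and 44 lower in ACHN-HOTAIR and a median log2 difference of -0.057.

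Among the regulators of the clusters, 20 of 20 genes on the array were detected on all arrays, CTCF, the cohesin subunits RAD21, SMC1A and SMC3, the loader NIPBL and the DNA methyltransferases DNMT1, DNMT3A and DNMT3B included. Of their 33 tested probes, 10 were higher and 23 lower in ACHN-HOTAIR. ZNF143, a factor that binds at CTCF-anchored loops, measured -0.35, -0.18, -0.32 and -0.28 on EV1 to EV4 and -0.68, -0.62 and -0.50 on HOTAIR1 to HOTAIR3. Its groups did not overlap, and the log2 difference of -0.32 (SE 0.10) had a limma adjusted p of 0.641. SMCHD1, a chromatin protein that represses the clustered protocadherins, had a log2 difference of -0.27 (SE 0.12, adjusted p = 0.838) at 1 probe and -0.066 (SE 0.17, adjusted p = 0.993) at another. For RAD21L1, a meiotic cohesin subunit, 1 probe differed by 0.42 (SE 0.15, adjusted p = 0.715) and another by -0.18 (SE 0.14, adjusted p = 0.988), so the probes of this gene disagreed in sign.

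The effectors include the WAVE complex, which binds many protocadherin tails, the kinases PTK2 and PTK2B, which the clustered proteins are known to inhibit, and beta-catenin. Of the 18 partner and effector genes on the array, 17 had a tested probe, and these were detected on all arrays. None of their 25 tested probes was called, with 15 higher and 10 lower in ACHN-HOTAIR. The other gene, FYN, was detected on 1 HOTAIR array only and was not tested. Its values, mostly at or near background, were -7.32 to -5.90 on the EV arrays and -5.74 to -5.01 on the HOTAIR arrays. The protease ADAM10 and the gamma-secretase subunits NCSTN, APH1A and PSENEN were detected on all arrays, and none of their probes was called. Of the adhesion relatives, CELSR1, CELSR2, CELSR3, FAT1, FAT3 and FAT4 were detected on all arrays by at least 1 probe, and FAT2, DCHS1 and DCHS2 on none. Of their 8 tested probes, 7 were lower in ACHN-HOTAIR, with a median log2 difference of -0.18 and none called. The 1 higher probe, of CELSR1, had the largest difference of the 8, 0.61 (SE 0.32, limma adjusted p = 0.926), and the other tested CELSR1 probe differed by -0.12 (SE 0.22, adjusted p = 0.993).

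**Figure D5:**
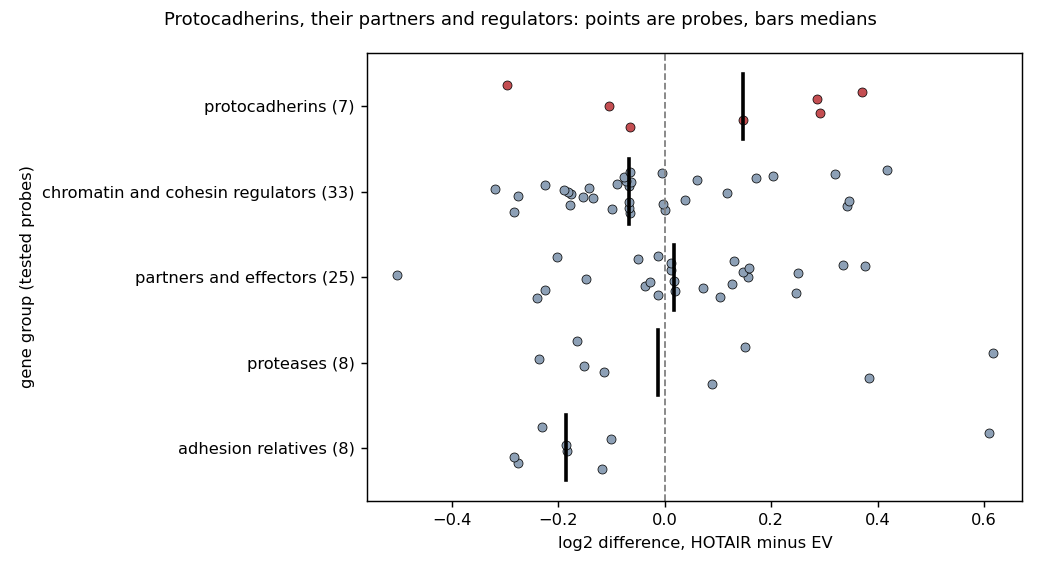
Log2 difference (HOTAIR minus EV) of each tested probe in the protocadherin family and in 4 groups of partners and regulators, with a black bar for the median of the group and the number of tested probes beside its name. Points of every group lie on both sides of 0 and no probe shown was called after adjustment.

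Since protocadherins are best known from neurons, neuronal markers were read beside them. NEFL, a neurofilament subunit, measured 0.32, 0.11, 0.11 and 0.027 on EV1 to EV4 and 0.99, 1.15 and 0.82 on HOTAIR1 to HOTAIR3, and SNAP25, a synaptic fusion protein, lay between -3.37 and -2.99 on the EV arrays and between -2.84 and -2.50 on the HOTAIR arrays. Neither was called after adjustment (limma, adjusted p = 0.0832 and 0.347), and the groups did not overlap for either, against 7.7% of all tested probes without overlap. Both genes were picked out after their values were seen. SYN1, a synapsin, was detected on no array. RBFOX3, also on the marker list, had no probe under its name. Summed over the 3 probes of these markers, the log2 relative intensity was 0.18 to 0.45 in EV and 0.96 to 1.27 in HOTAIR. This sum came mostly from NEFL, so it repeats the values of that probe. Whether these 2 genes have a part in the protocadherin values was not tested.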

How the data were processed

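Gene expression in ACHN-EV (4 samples) and ACHN-HOTAIR cells (3 samples) was measured on SurePrint G3 Human GE arrays with Cy3-labelled RNA, 1 sample per array. The authors processed the images with Feature Extraction 10.7.3.1. The deposited files give for each spot a processed intensity (after background subtraction and detrending, with an estimate of the error model in place of very low signals), mean and local background intensities, and other calls of 0 or 1. A deposited table of intensities held the same values to within 0.498%, not scaled between arrays. Accessions of 79 of the 80 member probes, annotated on hg19, matched RefSeq genes (GRCh38.p14), used for names only.

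Intensities were put on the log2 scale and centred on the 75th percentile of the non-control spots of their own array. Between 408 and 600 outlier spots per array were left out, and spots of a probe were averaged. The test took in the 20419 probes that all arrays of EV, or all arrays of HOTAIR, showed well above background. Groups came from the sample labels and were compared with limma 3.58.1 in R 4.3.3 (lmFit and eBayes, adjusted p of 0.05), checked on simulated data, and single probes by an exact two-sided permutation test over 35 splits. Alternatives were normexp background correction, quantile normalization, other scalings and filters, the rank product named by the study's methods, the Mann-Whitney test, a replicate block and leaving out arrays. Values were given for tested members, undetected members without overlap, member genes whose probes disagreed in detection, and the 3 list members with the smallest p. NEFL, SNAP25 and CELSR1 were named after their values were seen. The members and lists were chosen with earlier results of these data known. The number of arrays limits the precision.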

Additional observations from a re-analysis of the deposited data

Results flagged for a closer look

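In 2 of the 14 protocadherin probes detected on at least 1 array, the highest EV array stood apart from the other 3. Chance flags about 1 in 20 unselected groups, a share that does not hold here, because a probe with 1 high array is more likely to be detected and so to be among the 14. For PCDH15 this was EV1, at -5.96, with the others of the group from -7.34 to -7.15 and the gap to the next array 0.864 of the whole range. This is the mean of 2 spots of the probe, and the spots of 1 array differed by an SD of up to 2.40 log2 units. For PCDH11X it was EV2, at -3.59, with the others from -5.28 to -5.12 and the gap 0.906 of the range, in a single spot. Neither probe was detected on any HOTAIR array.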

How the results depend on the processing

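No protocadherin probe and no probe of the partner list was called in any of the 19 alternatives run. Among these, the Mann-Whitney test could call no probe with these arrays, and the replicate block called none of all probes, so neither is informative here. The median log2 difference of the 7 tested members stayed between -0.019 and 0.23. PCDH20 was lower in ACHN-HOTAIR in all 17 alternatives that give a difference, from -0.36 to -0.24, and PCDH7 (0.21 to 0.50), PCDH1 (0.22 to 0.38) and PCDHGA7 (0.033, with normexp, to 0.41) were higher in all 17. The difference of the HOTAIR probe, 3.71, was 1.06 with normexp (adjusted p = 0.0251). With single arrays left out, PCDHB13 ran from -0.073 (without EV1, its only change of sign) to 0.29 and PCDHGA8 from -0.29 to 0.13 (without EV2), with 0.019 without HOTAIR2. Without EV2 and HOTAIR3 together, an alternative added after the data were seen, PCDH20 differed by -0.33 (limma adjusted p = 0.471), PCDHGA8 by -0.063 and 14 probes in all were called. Counting a probe as detected on at least 1 array raised the detected members from 7 to 14. The 34 calls over all probes became 12 with normexp, 14 without a filter, 22 with probes detected on all arrays, 20 with trend and robust moderation, 0 by the Mann-Whitney test, whose smallest p is 0.0571, and 85 by the rank product. They ranged from 9, without EV1, to 31, without EV2, and were 10 without HOTAIR1 or HOTAIR2, 11 without EV4 and 12 without EV3 or HOTAIR3. With the replicate number as a block, 0 probes were called and the HOTAIR probe differed by 3.59 (adjusted p = 0.0772). Deviations from the group means of same-numbered arrays had r = 0.39, -0.37 and -0.41, and these arrays shared a column of the slide. So few values cannot show whether the numbers pair the samples, which the labels do not say. The causes were not tested.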
